A study of Homo sapiens with 19 samples.

Results

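The genes described here are 10 genes of the melanocyte lineage and of melanoma cell state. They are the transcription factors MITF, SOX10, PAX3 and TFAP2A, the pigment cell proteins PMEL and S100B, and the cell surface receptors ERBB3, EDNRB, AXL and NGFR. They were chosen by name, and every splice junction of each was taken from all 19 libraries of the series. They make up 10 of the 22760 genes that had reads, and 142 of the 247202 annotated single-gene junctions that were read.

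The series counted sequencing reads across splice junctions in ribosomal RNA-depleted libraries of 3 established human cell lines: A375 (melanoma), HEK293 (embryonic kidney) and HUES66 (embryonic stem cells). A375 gave 1 library each of total, nuclear and cytoplasmic RNA, and HEK293 and wild-type HUES66 gave 1 library each of total RNA, with no treatment named for these 5. The other 14 libraries were total RNA of HUES66 cells given doxycycline at 1 µg/ml for 24, 48 or 96 hr, in 3 control libraries, 3 with total knockdown of RBFOX2 (a splicing regulator), 4 with N-short knockdown and 4 with N-long knockdown of it. The series title names Cas13d, an RNA-guided nuclease that cuts RNA, as the means of knockdown. A375 and HEK293 were grown in serum-containing medium and HUES66 in a stem cell medium on a coated surface, so cell line and culture medium cannot be told apart. The description of the wild-type HUES66 library carries the name of the controls, so it may be the control of the first 24 hr replicate. In the labels nothing says that replicates came from separate cultures, and p-values over them measure the spread between these libraries, which may be technical.

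Melanocytes arise from the neural crest, where SOX10 and PAX3 switch on MITF, the basic helix-loop-helix factor that drives pigment genes such as PMEL. MITF has several promoters, each with its own first exon: the A form is used in many tissues, and the M form, whose first exon joins exon 2 directly, is characteristic of melanocytes. Melanoma cells vary in state, and loss of MITF and its pigment targets with gain of AXL or NGFR is a textbook description of the dedifferentiated state.

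MITF spans chr3:69739435-69968337 on the plus strand (GRCh38, GENCODE 29), and its first-exon choice was read from the junctions printed here. The A exon is spliced to exon 1B, which is then spliced to exon 2, while the M exon is spliced straight to the same start of exon 2. In each of the 3 sequences, taken from GENCODE 29 transcripts, the 15 bases in lower case end the upstream exon and the 15 in capitals begin the downstream exon. All are coding sequence.
A exon to exon 1B, chr3:69739687-69739701 joined to chr3:69879134-69879148: accgctgaagagcagCAGTTCCGCCGAGCA
Exon 1B to exon 2, chr3:69879369-69879383 joined to chr3:69937822-69937836: atggaagtccttaagGTGCAGACCCACCTC
M exon to exon 2, chr3:69936741-69936755 joined to chr3:69937822-69937836: tataatcactatcagGTGCAGACCCACCTC

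The last 2 junctions share their capitals, since both enter exon 2 at the same base, and differ in the exon they leave. The 250 bases before the A and the M starts are shown because they are the promoters whose products those junctions count. Both are RefSeq promoter sequences of GRCh38.p14 on the plus strand, and capitals mark a cAMP response element, TGACGTCA, searched on both strands. 
A promoter, chr3:69739214-69739463: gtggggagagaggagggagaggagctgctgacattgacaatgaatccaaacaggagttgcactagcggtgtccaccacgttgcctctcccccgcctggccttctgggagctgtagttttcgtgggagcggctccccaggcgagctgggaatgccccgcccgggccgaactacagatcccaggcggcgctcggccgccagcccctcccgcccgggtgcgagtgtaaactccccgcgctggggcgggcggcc
M promoter, chr3:69936342-69936591: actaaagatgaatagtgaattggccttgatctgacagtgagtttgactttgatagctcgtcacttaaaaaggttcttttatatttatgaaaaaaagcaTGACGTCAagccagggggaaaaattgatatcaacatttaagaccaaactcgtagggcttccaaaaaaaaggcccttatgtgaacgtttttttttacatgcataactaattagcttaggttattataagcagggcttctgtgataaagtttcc

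The element began 152 bases before the M start, and 1.65% of 35116 RefSeq promoters of this length held one. The A promoter held 20 CpG dinucleotides at 68.0% GC and the M promoter 4 at 34.8% GC, beside a median of 11 CpG over all promoters. Neither held CATGTG (an M-box core, in 9.42% of promoters), CACGTG (6.34%) or ACAAAG (a SOX core, 13.7%), each searched on both strands. A match or its absence describes these letters only.

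Reads into MITF exon 2 came almost wholly from exon 1B. In A375 total RNA 29 reads joined exon 1B to exon 2 and 0 joined the M exon to it, and a count of 0 allows an M share of up to 10.3%. In the nuclear library 4 of 23 reads left the M exon, 17.4% (95% Wilson interval 6.98% to 37.1%). The cytoplasmic library, the deepest of the 3, gave 3 of 119, 2.52% (0.861% to 7.15%). The 2 intervals overlapped by a narrow margin, and the difference was not tested. With 1 library per fraction and few M reads, the fractions are not ordered here. Neither HEK293 (5 reads into exon 2), wild-type HUES66 (2 reads) nor the 14 treated HUES66 libraries together (25 reads) held an M read, which allows up to 12% in the last. All these intervals, and those of counts and ratios, cover counting error only, since polymerase chain reaction copies were not told apart.

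Among all reads that left an annotated MITF first exon, the A exon led in the total RNA of every cell line. It held 9 of 12 reads in A375 total RNA, 75% (46.8% to 91.1%), and 26 of 38 in the cytoplasmic library, 68.4% (52.5% to 80.9%). In HEK293 and in wild-type HUES66 it held 3 of 3, and in the treated HUES66 libraries 7 of 7. The nuclear library had 6 first-exon reads, of which 2 were A and 4 were M, so its A share of 33.3% rests on few reads. The second most read first exon of A375 total and cytoplasmic RNA ended at chr3:69762789, between the A exon and exon 1B, with 3 and 7 reads. Its reads were 0 in HEK293 and in all 15 HUES66 libraries, where the total of first-exon reads was 3 and 10. A first exon ending at chr3:69763692 had 2 reads, both in cytoplasmic RNA, and the remaining annotated MITF first exons had none. Reads out of exon 1B into exon 2 outnumbered reads into it from the A exon in A375. They were 29 beside 9 in total, 19 beside 2 in nuclear and 116 beside 24 in cytoplasmic RNA. In HEK293 they were 5 beside 3, in wild-type HUES66 2 beside 3 and in the treated libraries 25 beside 7. Other junctions into exon 1B had at most 7 reads each. A start inside exon 1B leaves no first-exon junction, so the A shares are of first-exon reads and not of promoter use.

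**Figure D1:**
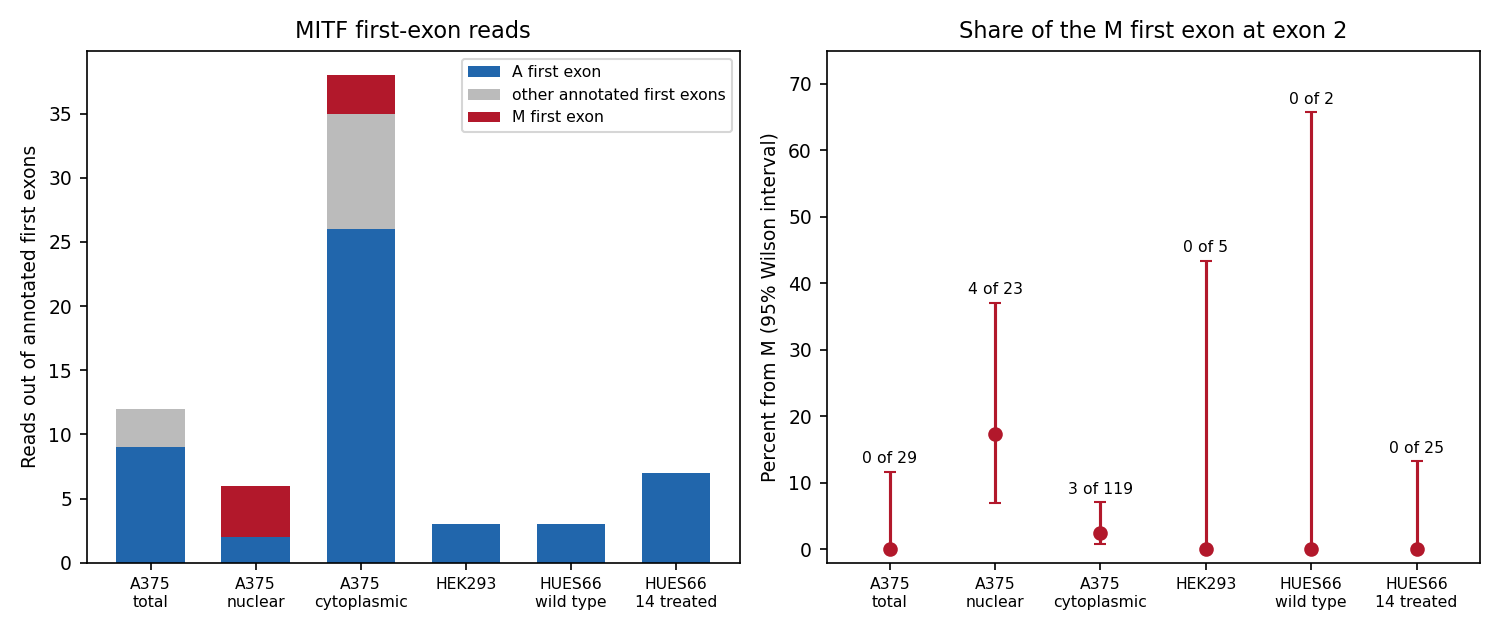
Left: reads that left annotated MITF first exons (A, M and all others, stacked). Right: percent of reads into exon 2 that came from the M exon, with 95% Wilson intervals and the counts above them, for A375 total, nuclear and cytoplasmic RNA, HEK293, wild-type HUES66 and the 14 treated HUES66 libraries summed. M reads appear in the nuclear (4) and cytoplasmic (3) A375 libraries and in no other column, and A reads in all.

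Levels are given as CPM, the counts per 1000000 junction reads of the library that fell on a gene's junctions. In these bulk libraries fewer cells expressing a gene and less RNA per cell cannot be told apart. With 1 library per line there is no test between lines: a gene is called higher or lower where its ratio is at least 4-fold and both libraries together hold at least 20 of its reads. A375 total RNA was called higher than HEK293 for 7 of the 9 genes with enough reads (10.7% of 12602 genes were) and lower for 1 (7.24%). Against wild-type HUES66 it was higher for 6 of 10 (11.6% of 13845) and lower for 1 (13.1%). MITF, SOX10, S100B and AXL were higher than in both lines, a call made for 7.77% of genes, and none was lower than in both (3.9% of genes were). The median log2 ratio of the genes described was 5.07 against HEK293, beside -0.10 over all genes, and 4.67 against HUES66, beside -0.01. Setting genes at 0 reads to the bound that 3 reads give left both medians as they were.

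The 4 transcription factors did not share a pattern. MITF had 328 reads in A375 total RNA, 39.0 CPM (34.9 to 43.4), 79 reads in HEK293, 8.22 CPM, and 23 in wild-type HUES66, 0.823 CPM. The treated HUES66 libraries ran from 0.685 through a median of 1.34 to 2.05 CPM, below both other lines in every library. The A375 level was 4.74-fold that of HEK293 (3.70 to 6.14) and 47.4-fold that of wild-type HUES66 (31.0 to 75.8). SOX10, the neural crest factor upstream of MITF, had 844 reads (100.3 CPM) in A375, 0 in HEK293 and 37 (1.32 CPM) in wild-type HUES66, with 0.378 to 1.56 CPM in the treated libraries. It was at least 321-fold higher in A375 than in HEK293 and 75.8-fold higher than in wild-type HUES66 (54.5 to 108).

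PAX3 and TFAP2A were read in A375 and HEK293 and hardly in HUES66. PAX3, a paired-box activator of MITF, had 95 reads (11.3 CPM) in A375 and 154 (16.0 CPM) in HEK293, a ratio of 0.704 (0.540 to 0.916), under the 4-fold line. Wild-type HUES66 had 0 reads, which makes A375 at least 105-fold higher, and 11 of the 14 treated libraries had 0. TFAP2A, which acts with MITF at melanocyte enhancers and is also widely used in ectoderm, had 81 reads (9.63 CPM) in A375 and 695 (72.4 CPM) in HEK293. It was the gene called lower in A375 than in HEK293, with HEK293 7.51-fold higher (5.96 to 9.58). Wild-type HUES66 had 1 TFAP2A read, a ratio of A375 to it of 269 (46.9 to 10755), and 10 of the treated libraries had 0.

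The pigment cell proteins went opposite ways. PMEL, which forms the fibrils of the melanosome, had 4 reads in A375 total, 9 in nuclear, 6 in cytoplasmic RNA and 7 in HEK293. In wild-type HUES66 it had 1337 reads, 47.9 CPM, and the treated libraries ran from 34.8 through a median of 48.8 to 69.3 CPM. Every HUES66 library was far above every library of the other lines, and wild-type HUES66 was 101-fold above A375 (39.2 to 370). S100B, a calcium-binding protein used to mark neural crest derivatives and melanoma, had 127 reads (15.1 CPM) in A375, 0 in HEK293 and 3 in wild-type HUES66. It was at least 48.3-fold higher in A375 than in HEK293, 141-fold higher than in wild-type HUES66 (47.0 to 691), and at 0 in 7 of the treated libraries.

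Of the receptors, AXL and ERBB3 had the most reads in A375. AXL, the receptor tyrosine kinase of GAS6 and a marker of the dedifferentiated melanoma state, had 4128 reads (490.7 CPM) in A375, 22 (2.29 CPM) in HEK293 and 985 (35.3 CPM) in wild-type HUES66. The ratio was 214 against HEK293 (141 to 342) and 13.9 against wild-type HUES66 (13.0 to 14.9), and the treated libraries ran from 28.3 to 48.6 CPM. ERBB3, the neuregulin receptor that signals with ERBB2, had 3438 reads (408.7 CPM) in A375, 85 (8.85 CPM) in HEK293 and 2982 (106.7 CPM) in wild-type HUES66. The 46.2-fold difference from HEK293 (37.2 to 58.0) passed 4-fold, while that from wild-type HUES66, 3.83-fold (3.64 to 4.02), fell just short of it. The 14 treated libraries were between 92.7 and 122 CPM for ERBB3, the narrowest relative range of the receptors.

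NGFR, the low-affinity neurotrophin receptor found on neural crest cells, had 144 reads (17.1 CPM) in A375, 15 (1.56 CPM) in HEK293 and 633 (22.7 CPM) in wild-type HUES66. A375 was 11-fold above HEK293 (6.43 to 20.1) and 0.756 of wild-type HUES66 (0.626 to 0.907), inside the range of 7.15 to 26.1 CPM of the treated libraries. EDNRB, the endothelin receptor needed by migrating melanocyte precursors, had 73 reads (8.68 CPM) in A375, 2 in HEK293 and 802 (28.7 CPM) in wild-type HUES66. The ratio of A375 to HEK293 was 41.7 (11.1 to 351), and HUES66 was 3.31-fold above A375 (2.60 to 4.26). The treated libraries ran from 24.4 through a median of 59.2 to 240.7 CPM, the widest spread of any of the 10 genes with over 20 reads in each of them.

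HEK293 against wild-type HUES66 completes the comparison of lines. HEK293 was higher for MITF (9.99-fold), TFAP2A and PAX3, 3 of 9 genes (7.58% of 13620 genes), and lower for SOX10, PMEL, ERBB3, AXL, NGFR and EDNRB, 6 of 9 (11.6%). PAX3 was at least 149-fold higher in HEK293, and SOX10 at least 4.24-fold lower. EDNRB, with 2 reads in HEK293, was 138-fold lower (38.0 to 1140.4) and PMEL 65.7-fold lower (31.8 to 163.7), with AXL 15.4-fold, NGFR 14.5-fold and ERBB3 12.1-fold lower in HEK293. Scaling the 3 lines by TMM factors (a trimmed mean of ratios) shifted every log2 ratio by 0.11 for A375 against HEK293, -0.07 for A375 against HUES66 and -0.18 for HEK293 against HUES66. No call among these changed with it.

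**Figure D2:**
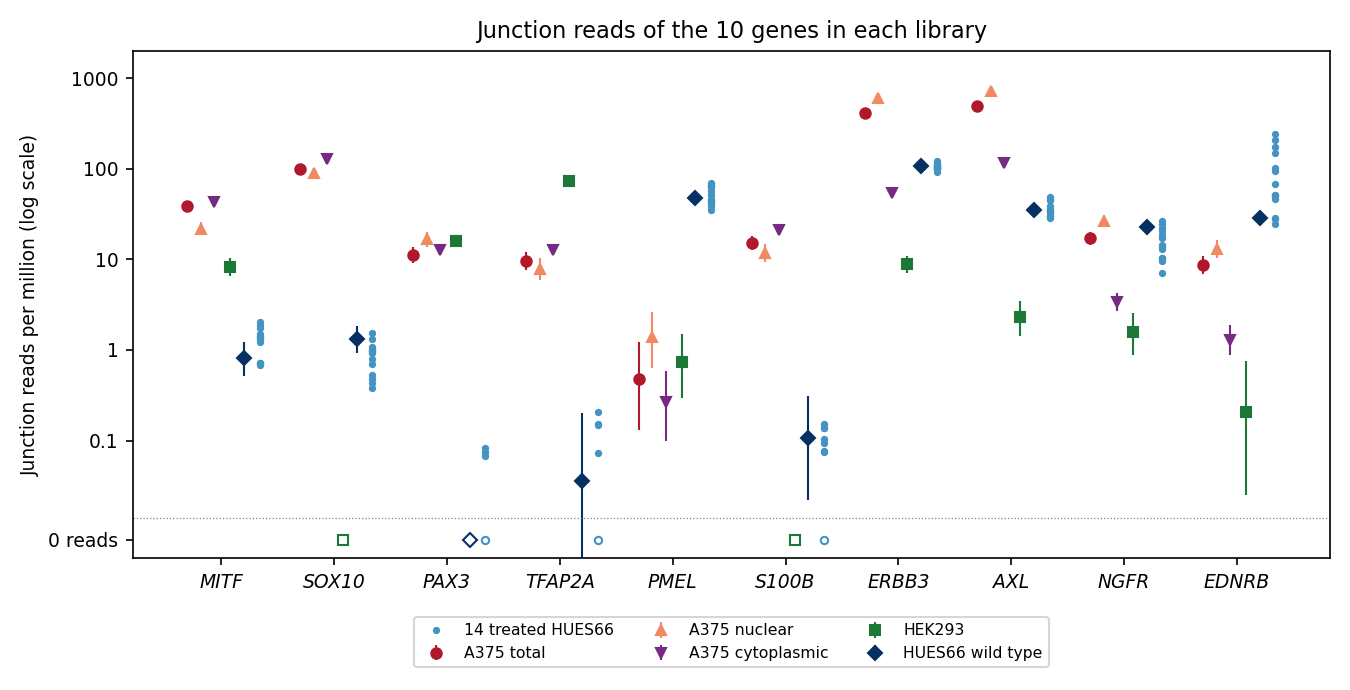
CPM of the 10 genes on a log axis, 1 point per library, with 95% exact Poisson intervals as bars for the 5 untreated libraries and open symbols on the lowest line for libraries with 0 reads. SOX10 and S100B stand high in A375 and at 0 in HEK293, PMEL high in HUES66, and TFAP2A highest in HEK293.

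Because genes differ in their number of introns, levels of different genes were compared as CPM per intron of 1 reference transcript. In A375 total RNA the order was AXL (25.4 per intron), SOX10 (24.4), ERBB3 (15.1), S100B (6.84), MITF (4.15), NGFR (3.42), TFAP2A (1.53), EDNRB (1.15), PAX3 (1.14) and PMEL (0.0432). The counting intervals of AXL and SOX10 overlapped, as did those of MITF and NGFR, and those of TFAP2A, EDNRB and PAX3, so these neighbours are not ordered. The first of the 4 introns of the SOX10 reference transcript had 0 reads in A375 total RNA, which lowers its value. The place of SOX10 beside AXL therefore depends on the transcript chosen. In HEK293 TFAP2A led at 11.3 per intron, ahead of PAX3 (1.61), MITF (0.844) and ERBB3 (0.328). In wild-type HUES66 NGFR (4.53), PMEL (4.19), EDNRB (4.10) and ERBB3 (3.95) stood close together, ahead of AXL (1.81), SOX10 (0.331) and MITF (0.0915). The 2 ends of the HUES66 group of 4 did not overlap, while each overlapped at least 1 neighbour. SOX10 was thus near the top of the order in A375, at 0 in HEK293 and at rank 6 in HUES66.

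The other genes of the pathway were counted in 6 lists, for which the share of all genes higher than in both lines, among those with at least 20 reads in A375 total RNA, is the 7.77% above. Of 20 pigment and melanosome genes 18 had reads and 9 had at least 20 in A375 total RNA, and GPNMB, a melanosome glycoprotein, was the one higher than in both lines, at 112 CPM against 8.54 in HEK293 and 0.537 in wild-type HUES66. The melanin enzymes TYRP1 and DCT had 11 and 3 reads in A375, and TYR and MLANA had no junction in the tables used. GPR143, a melanosome receptor, had 2 reads in A375 and 396 in wild-type HUES66. Of the 7 melanocyte and neural crest markers, then, A375 carried SOX10, S100B and MITF at levels above both other lines, while the pigment markers PMEL and DCT were near 0. Of 16 neural crest factors 15 had counted junctions (FOXD3 had none, so its level is not known) and 9 had at least 20 reads in A375. TFAP2B, SOX5 and TFAP2C were higher than in both lines, with SOX5 at 163 CPM against 8.33 and 2.29.

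Among 22 ligands and partner receptors, 11 of them with at least 20 reads in A375, NRG1, the ligand of ERBB3, was higher than in both lines (48.5 CPM against 4.16 and 3.29). MERTK, NTRK3 and KIT were lower than in both (3.9% of genes were), with KIT, the stem cell factor receptor of melanoblasts, at 0 reads in A375, 104 in HEK293 and 669 in wild-type HUES66. Of 14 dedifferentiated melanoma genes 11 had counted junctions and 10 had at least 20 reads in A375. JUN, CCN1 and CCN2 had no counted junction under these symbols, so their levels are not known. Of the 10, 6 were higher than in both lines: FOSL1, CD44, WNT5A, TGFBI, TNC and NRP1. CD44 was at 910 CPM in A375, 108 in HEK293 and 4.94 in wild-type HUES66, and TNC at 1284, 214 and 23.7. Of 9 genes linking the MAP kinase pathway to MITF, 8 had at least 20 reads in A375. The other, POU3F2, had no counted junction, so its level is not known. The phosphatase DUSP4 was the one of the 8 called, at 103 CPM against 4.58 and 2.54. None of the 3 MITF relatives TFE3, TFEB and TFEC was called against both lines, and TFE3, at 58.5 CPM in A375, 40 in HEK293 and 55.9 in HUES66, was within 2-fold in all 3.

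The A375 fractions separated the receptors from the other genes. By the labels the nuclear fraction is the pellet after lysis in a low-salt buffer with the detergent Triton, and the cytoplasmic fraction its supernatant, both from the scraped cells that gave the total RNA. Each level is relative to its own library, so a ratio says how a gene's share differed between fractions and not how many molecules each held. A gene was called at a ratio of at least 2-fold where the 2 libraries summed to at least 20 of its reads. ERBB3 had 3942 reads (606.5 CPM) in nuclear and 1197 (53.6 CPM) in cytoplasmic RNA, with total RNA between them at 408.7 CPM, a nuclear to cytoplasmic ratio of 11.3 (10.6 to 12.1). EDNRB was at 13.1 and 1.30 CPM, a ratio of 10.1 (6.54 to 15.9), from 85 and 29 reads. With unannotated junctions inside the gene counted too, its log2 ratio went from 3.32 to 2.36, through 26 cytoplasmic reads on 1 such junction. NGFR was at 26.6 and 3.40 CPM, a ratio of 7.83 (5.94 to 10.4), and AXL at 728.4 and 115.6 CPM, 6.3 (6.0 to 6.61).

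These 4 of 9 genes were called nuclear (22.7% of 12759 genes were) and 0 cytoplasmic (19.3%). All 4 encode membrane receptors, and none of the 5 others counted does. MITF was at 21.8 CPM in nuclear and 42.5 in cytoplasmic RNA, a log2 ratio of -0.96 that stopped short of the 2-fold line. S100B followed at -0.84 on that scale, TFAP2A at -0.69, SOX10 at -0.51 and PAX3 at 0.42. PMEL, with 9 and 6 reads, was not counted. The median log2 ratio of the 9 genes was 0.42, beside -0.11 over all genes.

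The receptors' ratios were also taken junction by junction. Junctions of 1 gene repeat its ratio in the same 2 libraries, so their counts are no separate evidence. The share over all junctions is not given here. Of junctions for which the fractions summed to at least 20 reads, all 28 of ERBB3 were at least 2-fold nuclear (log2 2.85 to 4.17), as were all 20 of AXL (2.23 to 2.97), all 5 of NGFR (2.21 to 3.39) and the 3 of EDNRB with enough reads (2.09 to 3.28), which lie in its downstream part. In PAX3 4 of 9 were, from -0.59 to 1.37. MITF had 10 such junctions, of which 5 were at least 2-fold cytoplasmic and none nuclear (-1.53 to -0.44). The 4 of SOX10 lay within -0.57 to -0.49, so these were close to each other.

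The lists were counted in the same way. Of 14 counted ligands and partner receptors 11 were called nuclear and 0 cytoplasmic, with a median log2 ratio of 1.72, and these included EGFR (3.17), ERBB2 (2.81), TYRO3 (2.07) and MERTK (3.30). Of 11 dedifferentiated melanoma genes 8 were nuclear and 2 cytoplasmic (median 2.65), with TNC, an extracellular matrix protein, at 4.59 and the transcription factor FOSL1 at -1.29. Of 13 neural crest factors 0 were nuclear and 4 cytoplasmic (median -0.30), and of 8 MAP kinase-linked genes 0 and 1. Of 9 pigment and melanosome genes 2 were nuclear and 2 cytoplasmic (median 0.06), with GPNMB, a membrane protein, at 3.88. Both counted MITF relatives were cytoplasmic, TFE3 at -1.40 and TFEB at -1.20. As a check of the fractions, the noncoding RNAs MALAT1, NEAT1 and TUG1, the 3 nuclear RNA markers counted, were at 4.86, 1.91 and 0.56, so that 2 of 3 were at least 2-fold nuclear, and 4 of 5 cytoplasmic RNA markers were at least 2-fold cytoplasmic (median -1.09). How much of the pellet was material other than nuclei was not tested.

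**Figure D3:**
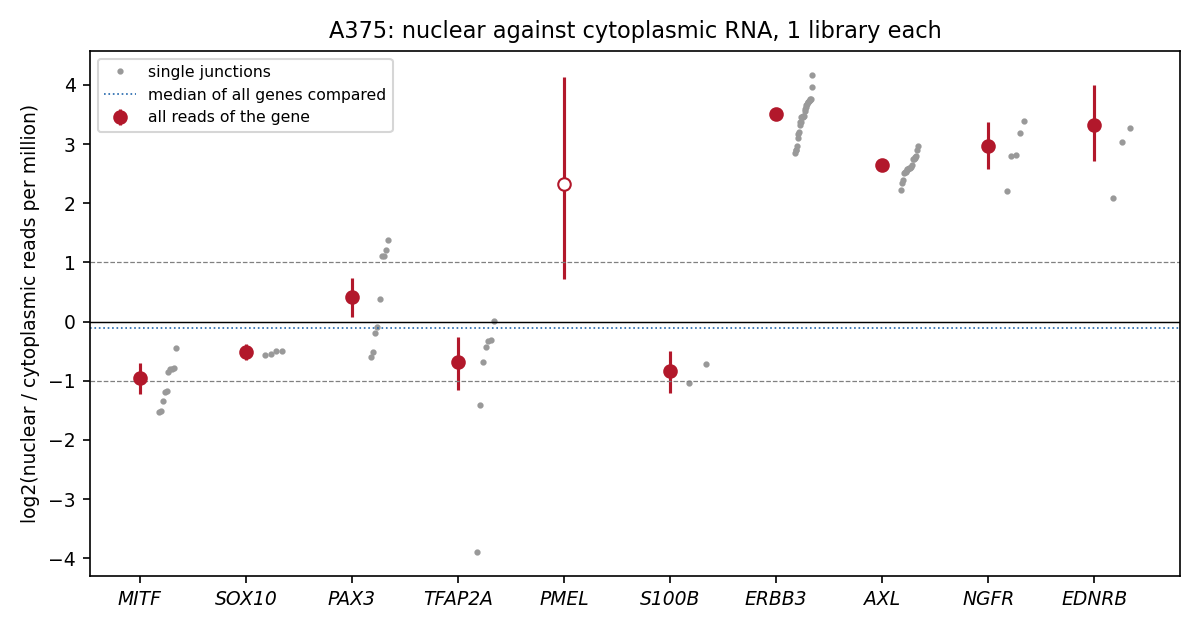
Log2 ratio of nuclear to cytoplasmic CPM in A375 for each gene (circles, 95% counting intervals as bars) and for its junctions with at least 20 reads (grey points). Dashed lines mark 2-fold, the dotted line the median of all genes, and the open circle PMEL, which had too few reads to be counted. ERBB3, AXL, NGFR and EDNRB lie above 1 with all their plotted junctions.

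Beyond first exons, 51 pairs of annotated junctions sharing an end had at least 20 reads in a library or in the HUES66 libraries summed, 6 of which could be compared between A375 total and wild-type HUES66 and 0 between A375 total and HEK293. The exons with the clearest data are a small cassette exon of AXL and an 18-nt insert of MITF, shown with their neighbouring bases in lower case and the optional bases in capitals, from GENCODE 29 transcripts on the plus strand.
AXL exon, chr19:41239694-41239720: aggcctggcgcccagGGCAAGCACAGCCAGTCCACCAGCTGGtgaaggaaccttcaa
MITF insert, chr3:69951812-69951829: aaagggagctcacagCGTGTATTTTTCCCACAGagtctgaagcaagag

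The AXL exon, 27 nt and so frame-keeping, was included in 59.2% of A375 total transcripts (51.6% to 66.3%), 54.9% of nuclear and 58.8% of cytoplasmic ones. Wild-type HUES66 included it in 38.9% (24.8% to 55.1%), and the treated libraries together in 32.9% (27.3% to 39.1%). The A375 and treated HUES66 intervals did not overlap, while that of wild-type HUES66 touched both. Over single treated libraries, each with few reads, inclusion ran from 18.2% to 60.0%. HEK293 had 4 skipping reads and none of inclusion, too few to place it.

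The MITF insert lies just before the basic region that binds DNA, and adds 18 nt through an earlier acceptor. It was present in 10 of 50 reads of A375 total RNA, 20.0% (11.2% to 33.0%), in 3 of 15 nuclear and in 30 of 126 cytoplasmic reads, 23.8% (17.2% to 32.0%). HEK293 had it in 6 of 14, 42.9% (21.4% to 67.4%), and the treated HUES66 libraries together in 10 of 33, 30.3% (17.4% to 47.3%). These intervals all overlapped, so no difference between lines was detectable at this depth.

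ERBB3 had an alternative upstream exon inside its main intron chr12:56080383-56083750, read in A375 and hardly in HUES66. The intron after it starts at chr12:56083549, and whether it marks another transcription start was not tested. In A375 total RNA 13 of 119 reads into the shared acceptor came from this exon, so that 89.1% came from the main exon (82.2% to 93.5%). Nuclear and cytoplasmic RNA were alike at 86.3% and 86.7%. Wild-type HUES66 used the main exon in 113 of 113 reads (lower bound 96.7%) and the treated libraries in 603 of 610. In PAX3, whose A375 reads were fewer, 4 annotated introns begin at the exon end chr2:222294167 (minus strand). The longest of them took 84.6% of 13 reads in total RNA (57.8% to 95.7%), 73.7% of 19 in nuclear RNA (51.2% to 88.2%), 40.4% of 52 reads in cytoplasmic RNA (28.2% to 53.9%) and 13 of 14 reads in HEK293. The total and cytoplasmic intervals did not overlap, and the nuclear one overlapped both. The 2 most read introns into 1 acceptor of TFAP2A, whose far ends are 10411569 and 10414940 on chromosome 6, were near balance, with 23 and 25 reads in A375 cytoplasmic RNA and 43 and 35 in HEK293.

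A distal first exon of EDNRB was read in A375 and not in HUES66, while the proximal one was read in both. Of A375 reads into the first coding exon, 5 of 7 in total RNA left the distal exon, which ends at chr13:77975347 (71.4%, 35.9% to 91.8%). In nuclear RNA 3 of 5 did (60.0%, 23.1% to 88.2%), and in cytoplasmic RNA 0 of 1. In HUES66 that distal exon had 0 reads, beside 12 in wild type and 192 in the treated libraries from the proximal first exon ending at chr13:77919397. The proximal exon had 2, 2 and 1 reads in A375 total, nuclear and cytoplasmic RNA. Where transcription starts inside the first coding exon no first-exon junction is left, and the reads out of that exon (98 in wild-type HUES66 and 2052 in the treated libraries) far exceeded those into it (12 and 224). For PMEL such starts are likewise unseen by junctions. In SOX10 the main intron out of the exon ending at chr22:37984339 had 270, 201 and 1007 reads in A375 total, nuclear and cytoplasmic RNA. The annotated first exon before it, ending at chr22:37987345, had 0, 0 and 3. Reads out of that SOX10 exon thus also far exceeded those into it. The PMEL cassette exons were included in 97.2% to 99.2% of transcripts in wild-type HUES66.

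**Figure D4:**
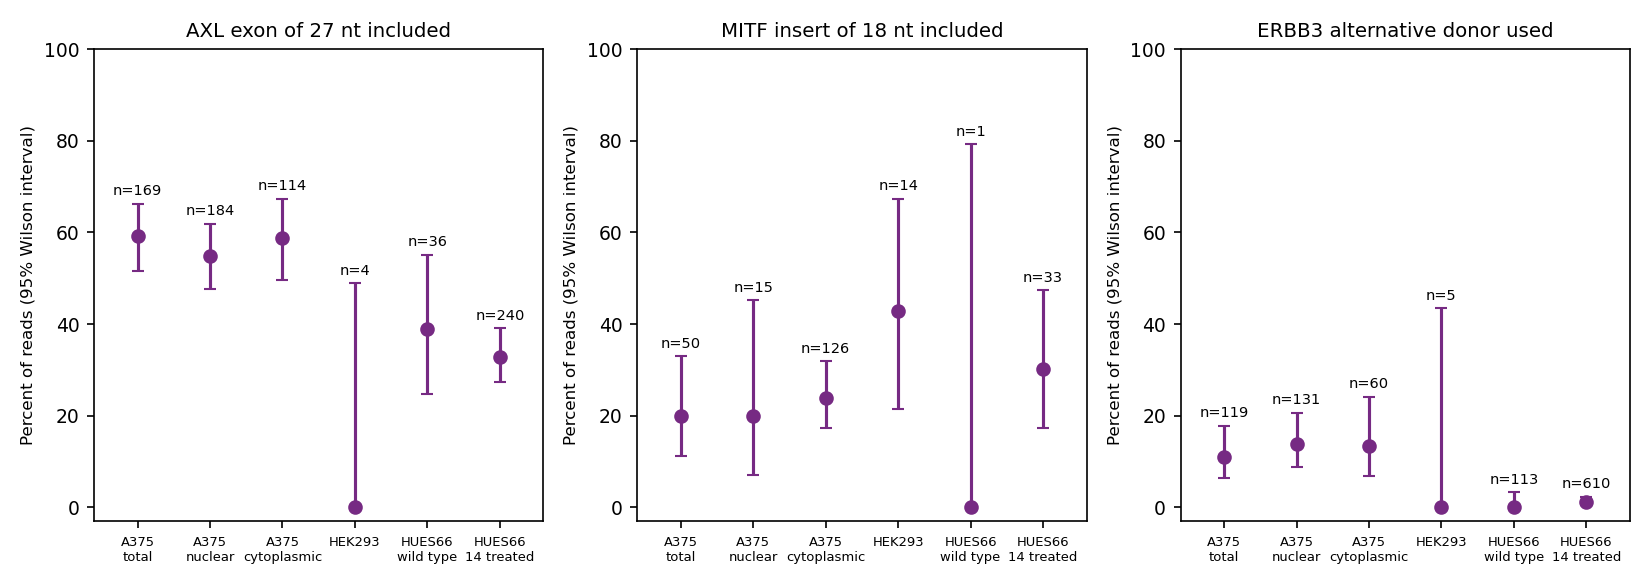
Percent of reads that include the AXL exon, include the MITF insert or leave the alternative upstream exon of ERBB3. Shown are A375 total, nuclear and cytoplasmic RNA, HEK293, wild-type HUES66 and the 14 treated HUES66 libraries summed. Bars are 95% Wilson intervals, and n is the reads behind each value. The AXL interval of A375 total RNA lies above that of the treated HUES66 libraries, and the MITF intervals overlap.

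In the 14 treated HUES66 libraries 7 of the 10 genes had enough reads to be tested, AXL, EDNRB, ERBB3, MITF, NGFR, PMEL and SOX10, with edgeR's quasi-likelihood test and Benjamini-Hochberg adjustment over all 13628 genes. The other 3, S100B, TFAP2A and PAX3, had at most 3 reads in any of these libraries and did not pass the filter on low counts. None of the 7 changed in any of 4 contrasts, at an adjusted p under 0.05: total knockdown against control (2.2% of genes called), N-short (0.0%) and N-long (0.022%) against control, and the N-long libraries against the N-short ones (0.0147%). DESeq2 called 0 of them too. At an unadjusted edgeR p under 0.05 there was 1 of 7 for total knockdown (ERBB3), 1 for N-short (NGFR), 2 for N-long (EDNRB and PMEL) and 2 for N-long against N-short (NGFR and EDNRB). Over all 13628 genes there were 1767, 537, 594 and 693 in the same order.

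RBFOX2 itself was at 119 to 126 CPM in the 3 controls, 48.2 to 78.7 with total knockdown, 107 to 120 with N-short and 72.7 to 87.6 with N-long knockdown, so the targeted gene was below every control in total and N-long knockdown. ERBB3, the gene nearest to a call under total knockdown, differed by a log2 fold change of 0.10 (SE 0.050, edgeR adjusted p = 0.368). NGFR, for which N-long knockdown was lower than N-short by a log2 value of -0.33 (SE 0.092), had an edgeR adjusted p of 0.578. MITF, with 8 to 30 reads per library, had an SE of 0.41 in the total knockdown contrast, so only a large change could have been seen. Without the filter on low counts edgeR called EDNRB in N-long knockdown against control (log2 0.22, adjusted p = 0.0294) and against N-short (0.20, adjusted p = 0.0476). With time in place of library set its N-long difference from control turned to -0.03. Of the 69 junctions of these genes tested by edgeR, 0 changed in any of the 4 contrasts (0.451%, 0.0116%, 0.0457% and 0.0307% of 120379 junctions did). DESeq2 called 0 as well, and edgeR's unadjusted p was under 0.05 for 6, 3, 12 and 9 of them. Over all 120379 junctions it was under 0.05 for 9524, 5486, 5753 and 5752. Among list genes 5 were called with total knockdown, where 2.2% of all genes tested were. They were 1 of 11 pigment and melanosome genes tested and 1 of 14 ligands and partner receptors. The others were 1 of 11 dedifferentiated melanoma genes and 2 of 7 pluripotent stem cell markers. No gene of another list was called. SLC7A5, an amino acid transporter, rose by 0.78 (edgeR adjusted p = 5.182e-08) and ERBB2, the partner of ERBB3, by 0.16 (0.0318) on the log2 scale, as did the pluripotent stem cell markers TDGF1 by 0.17 (0.026) and DNMT3B by 0.15 (0.0493), while VIM fell by 0.37 (0.00307).

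The authors' deposited tables of splicing events hold 154 events in these genes over 9 comparisons, and none had a false discovery rate under 0.05. In the authors' deposited tables a p-value under 0.05 was given for 2, both the same skipped exon of ERBB3, chr12:56093764-56093896, at 96 hr. The authors' deposited tables give it an inclusion difference, control minus knockdown, of -0.076 for N-short (p-value 0.0304, false discovery rate 0.923) and for N-long knockdown (0.0264 and 0.873).

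Calls were made between library sets, each of which is 1 time and 1 series of libraries. EDNRB was at 26.9 ± 2.13 CPM (SD, n = 3) in the first 24 hr set, 87.2 ± 17.4 (n = 3) in the second, 192.5 ± 40.6 (n = 4) at 48 hr and 49.3 ± 1.96 (n = 4) at 96 hr. At 48 hr its 4 libraries were at 173.9 (control), 147.3 (total), 208.2 (N-short) and 240.7 CPM (N-long), and none of the 4 sets overlapped another. Wild-type HUES66, at 28.7 CPM, was next to the first 24 hr set. The fall from 48 to 96 hr was a log2 fold change of -1.90 (SE 0.085, edgeR adjusted p = 4.302e-19). Since the 2 sets of 24 hr differed from each other as well, time and library set cannot be told apart.

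PMEL and AXL fell with EDNRB between 48 and 96 hr, and NGFR rose. PMEL was at 62.7 to 67.7 CPM in the 4 libraries of 48 hr and at 34.8 to 42.2 in those of 96 hr, with no overlap, a log2 fold change of -0.67 (SE 0.063, edgeR adjusted p = 4.973e-11). AXL went from 45.1 to 48.6 CPM down to 28.3 to 30.3, a log2 fold change of -0.59 (SE 0.060, edgeR adjusted p = 3.999e-10). NGFR was at 7.15 to 10.4 CPM at 48 hr and 12.9 to 18.3 at 96 hr, also without overlap, a log2 fold change of 0.71 (SE 0.10, edgeR adjusted p = 3.496e-07). The 24 hr sets of NGFR, at 23.1 ± 2.75 and 19.9 ± 4.08 CPM (SD, n = 3 each), had higher means than both, and the second, from 17.3 CPM up, overlapped the 96 hr set. ERBB3 rose by 0.11 (SE 0.041, edgeR adjusted p = 0.0203), a call lost without any 1 of 3 libraries (total or N-long knockdown at 48 hr, N-long at 96 hr: log2 0.07 to 0.10).

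That made 5 of 7 genes called, beside 59.0% of all genes, with 2 higher (29.3% of all genes) and 3 lower (29.7%). MITF was at a log2 fold change of -0.04 (edgeR adjusted p = 0.93), and SOX10 was at -0.83 (SE 0.37, edgeR adjusted p = 0.0524) from 5 to 19 reads per library. SOX10 passed the threshold when the total knockdown library of 48 hr (-0.98, edgeR adjusted p = 0.0444) or of 96 hr (-1.26, 0.011) was left out. The median log2 fold change of the 7 was -0.59, beside -0.01 over all genes tested. By junction, all 7 tested junctions of EDNRB and all 11 of PMEL fell, as did 11 of 19 of AXL, all 5 of NGFR rose, and 2 of 27 of ERBB3 rose. That is 7 junctions higher and 29 lower of 69, beside 32.9% of all junctions called, 18.4% higher and 14.4% lower.

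Of the 14 ligands and partner receptors tested, 10 fell (29.7% of all genes did) and 2 rose (29.3%) from 48 to 96 hr. The neuregulin receptor ERBB4 was at a log2 fold change of -2.32, the endothelin receptor EDNRA at -1.14 and KIT at -0.96, while ERBB2 was at 1.05. Of 8 pluripotent stem cell markers 7 were tested, and of these 5 rose and 0 fell, beside the same shares of all genes. The part of this shift in the results for the genes described was not tested. The summed level of that marker list was 1814 to 3294 CPM over the treated libraries, beside 2289.5 in wild-type HUES66 and 9.39 in A375.

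**Figure D5:**
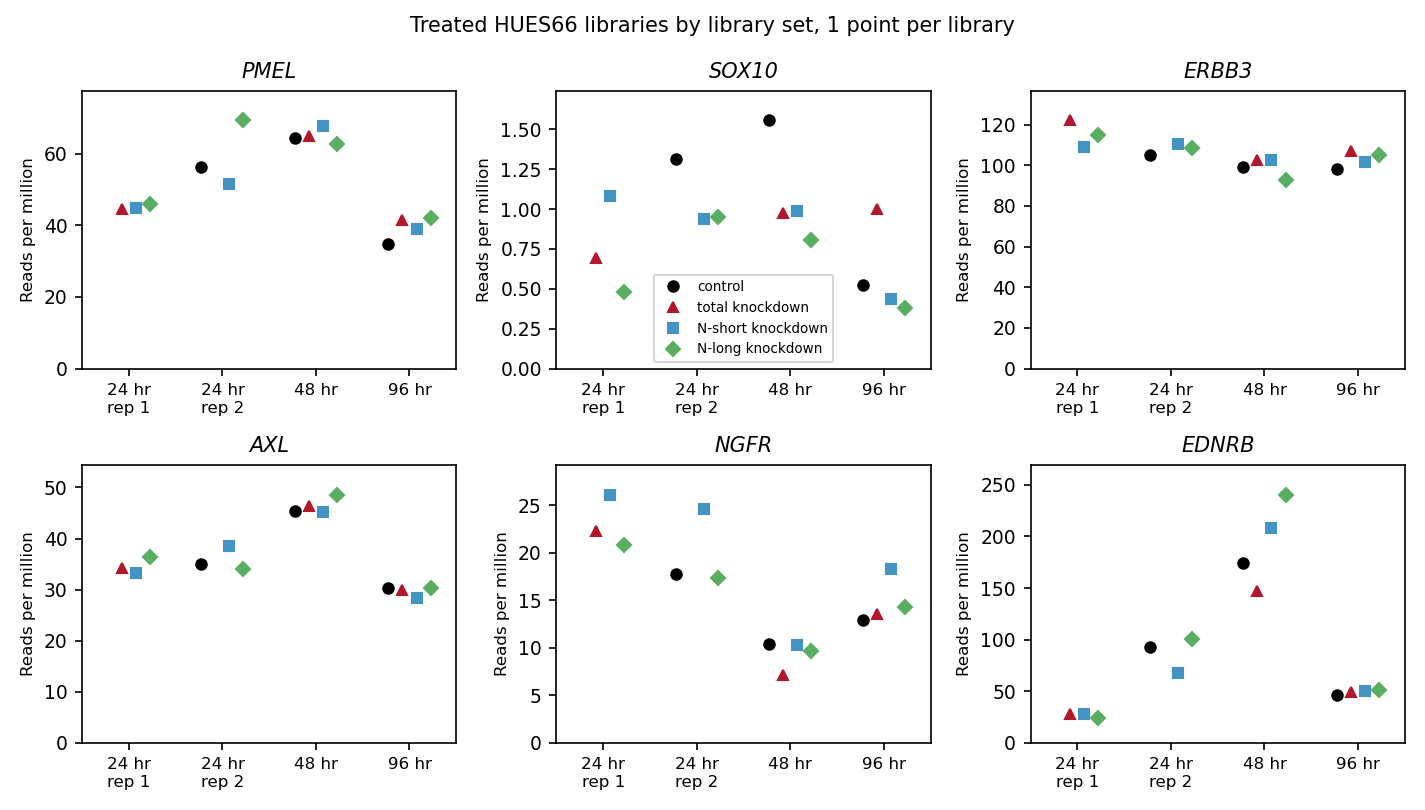
CPM (linear axes from 0) of PMEL, SOX10, ERBB3, AXL, NGFR and EDNRB in the 14 treated HUES66 libraries, 1 point per library, by library set and with the knockdown by symbol. EDNRB is highest in the 4 libraries of 48 hr, where NGFR is lowest, and AXL and PMEL are lowest at 96 hr.

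Over the 19 libraries, the genes whose log2 CPM ran most alike MITF, by Pearson's r among 11075 genes, were TRIM44 (0.985), FLG-AS1 (0.973) and UAP1 (0.973). For SOX10 they were S100A6 (0.982), TSC22D1 (0.979) and LGALS1 (0.976). These are descriptions over points that share their source, since 15 of the 19 libraries are of HUES66 and 3 of A375.

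The libraries held between 6499183 (A375 nuclear) and 27937149 (wild-type HUES66) junction reads, with 8412005 in A375 total, 22344622 in A375 cytoplasmic, 9605334 in HEK293 and 9622841 to 14625040 in the treated libraries. The 3 reads that a count of 0 was taken to allow were 0.357 CPM in A375 total, 0.312 in HEK293 and 0.107 in wild-type HUES66.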

How the data were processed

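Junction reads were counted in 19 libraries. The junction tables hold raw counts, per the file headers and values: 1 row per splice junction with the number of supporting reads, as the authors deposited them. STAR 2.7.1, SAMtools 1.9 and hg38 are named in the submitters' processing notes, with no role, and read filters are not given in the sources used here. The 9 event tables give the authors' inclusion difference (a unit of its own, from -1 to 1) and the authors' deposited p-value and false discovery rate, and 69 per-library columns of them were not used.

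GENCODE 29 was the annotation, another release than some file names carry. Spike-in reads were set apart, and reads on junctions of 1 gene name were summed per gene, 93.3% to 94.8% of each library. CPM is counts per 1000000 junction reads, 6499183 to 27937149 per library. Single libraries were compared without a test, with 95% Wilson intervals for shares, exact intervals for counts and ratios, a pseudocount of 0.5 reads in log2 ratios, and a count of 0 taken to allow 3 reads. Fold limits were 4 between lines and 2 between fractions, with at least 20 reads in both libraries together.

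The 14 treated HUES66 libraries were fitted with R 4.3.3 and edgeR 4.0.16 (quasi-likelihood test, TMM factors, filterByExpr, Benjamini-Hochberg within each contrast over all genes or junctions, threshold 0.05), with terms for knockdown and library set. Library set is the time and, at 24 hr, the replicate, as the labels place these in different library series. Residuals from each knockdown group's mean, over 10108 genes, correlated at a median of 0.742 (0.536 to 0.88) in 18 pairs of libraries of 1 set. In 55 pairs of different sets the median was -0.285 (-0.802 to 0.63). Time was left in these residuals, and subtracting group means by itself lowers correlations between sets. They therefore cannot check the library sets apart from time. DESeq2 1.42.0 was an alternative. The fits were tested on simulated data. Other alternatives were TMM factors for single libraries, annotated reads only, all junctions inside a gene, a pseudocount of 1 read, a minimum of 50 reads, no filter, no replicate block, wild-type HUES66 as a control, and each library left out.

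Named genes are the 10 genes, list genes past 4-fold against both lines in A375 total RNA with at least 20 reads there (up to 6 per list), list genes called in a knockdown contrast (up to 4 per contrast), and the 3 most alike MITF and SOX10. Other list genes were named after their values were seen. The genes and lists were chosen with earlier results of these data known. Of 133 list entries 2 symbols had no match. A gene of 1 exon has no junction and cannot be counted in this way. Python 3.11.15, numpy 2.4.6, pandas 2.3.3, scipy 1.17.1 and matplotlib 3.10.9 were used.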

Additional observations from a re-analysis of the deposited data

Results flagged for a closer look

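Junctions outside the annotation were not part of the comparisons, and 5 of them in these genes had over 3 reads in at least 2 libraries and 0 in HEK293. Such junctions depend on the annotation release used. In EDNRB the junction that left the distal first exon for chr13:77944873 (intron 77944874 to 77975346) had up to 26 reads in 1 library: 5 in A375 total, 4 in nuclear and 26 in cytoplasmic RNA, and 0 in all HUES66 libraries. The next junction downstream is annotated to the noncoding gene AL139002.1, across an exon of 69 nt, and had 6, 3 and 21 reads in the same A375 libraries and 0 elsewhere. Per library depth they were at 0.615 and 0.462 CPM in nuclear and 1.16 and 0.940 CPM in cytoplasmic RNA, log2 ratios of -0.78 and -0.84, short of the 2-fold line.

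In SOX10 the intron 37978136 to 37978598 had up to 7 reads (3 in A375 total, 4 nuclear, 7 cytoplasmic, 0 in HUES66), and the intron 37978653 to 37983356 up to 10 (4, 10 and 9, with 1 in the treated HUES66 libraries together). In AXL the intron 41256616 to 41257492 had up to 10 reads (6, 10 and 5, and 0 in HUES66). In ERBB3 the intron 56093551 to 56094098 had up to 6 reads (2, 5 and 2 in A375, 6 in wild-type HUES66 and 14 in the treated libraries together).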

How the results depend on the processing

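Calls between lines and fractions kept their side under every alternative run. Of the values that moved, the A share of MITF first-exon reads was 100% in A375 total RNA with junctions of at least 5 reads (9 reads), and 100% in nuclear RNA (2 reads) counting only junctions into its shared acceptor. The M share counted in that way was 17.4% in nuclear and 2.52% in cytoplasmic RNA, and 0% in the latter with junctions of at least 5 reads. Few reads limit all of these. Without the filter edgeR called 1 gene, EDNRB, for N-long knockdown against control and 1, EDNRB, against N-short. With no replicate block (time in place of library set) EDNRB for N-long against control reversed to -0.033, edgeR called 4 genes and 33 junctions between 96 and 48 hr, where ERBB3 was at 0.11 (edgeR adjusted p = 0.0872), and it called 0 genes in the knockdown contrasts. Leaving out 1 library each in turn gave 4 to 6 genes and 30 to 32 junctions for 96 against 48 hr, and 0 to 1 junctions for N-long against control (1 without the 24 hr control). DESeq2 called 22 junctions for 96 against 48 hr, beside 36 by edgeR. Over all genes, total knockdown gave 138 higher and 162 lower by edgeR, 96 and 140 by DESeq2, 183 and 193 without the filter and 48 and 14 with no replicate block. The causes were not tested. Comparisons of single libraries carry no error between cultures.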
